A study of Homo sapiens with 6 samples.

Results

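Cystatins are small proteins that block papain-like cysteine proteases, and 6 human cystatin genes are described here: CST1, CST2, CST4, CST3, CST6 and CSTB. They are 6 of the 61228 gene names in the deposited count table, and were chosen as a family after the comparison of knockout with control libraries was known. That comparison is therefore given for them as a description, with no p-value. Of the 6 genes, 5 passed the filter on low counts and CST6 did not. The RNA-seq libraries are of MDA-MB-231, an established triple-negative breast cancer cell line, cultured in 3D collagen I. The 3 control libraries are from cells nucleofected with Cas9 and control guide RNAs. The 3 knockout (KO) libraries are labelled by treatment as knockouts of ETV1, ETV4 and ETV5, 3 related ETS transcription factors, made by nucleofection of Cas9 with gene-specific guides, while their titles name ETV4 alone. All KO library names carry the tag c39, of unstated meaning. If c39 is a single clone, a difference that belongs to that clone and an effect of the knockout cannot be told apart. The protocol allows for 2 collagen concentrations, 1.2 and 2.4 mg/ml, without saying which was used for which library.

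CST1, CST2, CST4, CST3 and CST6 carry a signal peptide and are secreted, whereas CSTB (stefin B) lacks one and acts inside the cell. CST1 (cystatin SN), CST2 (cystatin SA) and CST4 (cystatin S) are best known from saliva and tears. CST3 (cystatin C) is made by most nucleated cells, and CST6 (cystatin M/E) is best known from skin. The proteases they bind, the cysteine cathepsins, work mainly in lysosomes and can be released to cut extracellular matrix. CST3 and CST6 also inhibit legumain, a lysosomal protease of a separate family.

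CST1, CST2 and CST4 are close copies, which bears on how their reads can be told apart, so the coding stretch in which they differ most is shown first, for CST4 and CST2. All positions are on GRCh38 and from GENCODE release 29. The 3 genes lie on chromosome 20, minus strand: CST1 (ENSG00000170373) at 23747553 to 23751268, CST2 (ENSG00000170369) at 23823769 to 23826731 and CST4 (ENSG00000101441) at 23685640 to 23689040. Each has 3 coding exons. The sequences run 5′ to 3′ over coding bases 1 to 120, counted from the start codon in the first coding exon, and capitals mark the 24 positions that are not the same in all 3 genes. They lie at chr20:23688850-23688969 for CST4 and chr20:23826541-23826660 for CST2.
CST4: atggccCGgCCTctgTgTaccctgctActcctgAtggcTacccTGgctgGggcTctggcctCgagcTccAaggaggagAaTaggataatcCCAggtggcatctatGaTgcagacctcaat
CST2: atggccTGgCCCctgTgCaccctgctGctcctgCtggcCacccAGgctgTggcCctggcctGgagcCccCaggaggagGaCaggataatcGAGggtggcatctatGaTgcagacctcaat
Over the 423 coding bases, CST1 and CST4 were identical at 92.7% of positions, CST2 and CST4 at 92.4%, and CST1 and CST2 at 91.3%. The longest run shared by all 3 was 87 bases. CST3 matched CST1 at 72.1% of aligned coding positions, CST4 at 73.3% and CST2 at 74.5%. Of all 100-base stretches in the CST1 transcript, 8.02% also occurred in a transcript of another gene, in each case CST4. For CST4 the share was 8.13%, and for CST2, CST3, CST6 and CSTB it was 0. For each gene a single transcript was searched, such as CST3-201 for CST3. With stretches of 50 bases the shares were 27.3% for CST1, 30.2% for CST4 and 8.30% for CST2, and still 0 for CST3, CST6 and CSTB. The length of the reads is not given in the sources used here.

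Counts assigned to genes summed to between 18042601 and 23232770 per library, and values below are CPM (edgeR's counts per library total, scaled with TMM factors, not divided by gene length). Replicate 3 of both groups stood apart from the other 4 libraries, so results that rest on it are given with and without it. Nothing in the labels says that replicates are separate cultures, and the error measured may be technical. Of the targeted genes, ETV1 fell from 223 ± 13.5 to 142 ± 11.1 CPM (SD, n = 3 per group; edgeR adjusted p = 0.00125) and ETV4 from 93.9 ± 2.11 to 63.7 ± 2.03 CPM (SD, n = 3; edgeR adjusted p = 6.12e-04). ETV5 was at 112 ± 4.77 and 113 ± 1.23 CPM (SD, n = 3; edgeR adjusted p = 0.932). RNA counts per gene do not show whether the protein of a targeted gene was lost, and protein was not measured here. All 6 genes listed as markers of the line (VIM, CD44, AXL, CAV1 and the keratins KRT8 and KRT18) were above the filter. Their sum was 8180 to 10200 CPM in control and 7410 to 8880 CPM in KO, most of it VIM, with means of 6660 and 5400 CPM. CD44, KRT8 and CAV1 had higher values in every KO library than in any control, and 0 of the 6 genes passed edgeR's test. Over all tested genes, 31.7% had groups without overlap in either direction, and 9.70% passed. The hormone receptor and epithelial genes ESR1, PGR, CDH1 and EPCAM summed to 17.4 to 22.6 CPM over the 6 libraries. Nearly all of that was EPCAM, with means of 19.7 CPM in control and 21.1 CPM in KO. Fibroblast markers (4 genes, with DCN, LUM and COL3A1 near 0) summed to 3.66 to 4.04 CPM in control and 2.09 to 2.86 CPM in KO. Nearly all of that was PDGFRB, with means of 3.57 and 2.38 CPM (edgeR adjusted p = 0.0676). Endothelial markers (2 genes, with VWF near 0) summed to 6.12 to 7.38 CPM in control and 3.08 to 4.88 CPM in KO. Leukocyte markers (3 genes, with CD3E at 0) summed to 0.898 to 1.89 and 1.14 to 1.39 CPM. Of these markers PECAM1 fell, from 6.76 ± 0.631 to 3.74 ± 0.947 CPM (SD, n = 3; edgeR adjusted p = 0.0250). Their part in the results was not tested.

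CST1, the cystatin SN gene, was 12.1-fold lower in the KO libraries. It measured 78.4, 67.0 and 75.6 CPM in control replicates 1, 2 and 3, against 6.0, 5.87 and 6.33 CPM in KO replicates 1, 2 and 3. All 3 KO libraries lay far below the lowest control, and the coefficient of variation was 8.10% within control and 3.93% within KO. The group means were 73.7 ± 5.97 and 6.06 ± 0.239 CPM (SD, n = 3), and the log2 fold change of KO over control was -3.60 (SE 0.09), which ranked 4 from the lowest among 14704 tested genes. In bulk RNA, fewer cells that express a gene and less of its RNA per cell cannot be told apart.

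CST4, the cystatin S gene, was 9.60-fold lower. Its counts were 1095, 888 and 1427 in the controls and 101, 103 and 108 in the KO libraries, which correspond to 51.8, 47.8 and 60.7 CPM and to 5.41, 5.35 and 5.94 CPM. The groups did not overlap, and control replicate 3 was the highest library. The log2 fold change was -3.26 (SE 0.11).

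CST2, the cystatin SA gene, was far less abundant. It had 69, 66 and 83 counts in the controls but only 6, 15 and 4 in the KO libraries, or 3.26, 3.56 and 3.53 CPM against 0.321, 0.779 and 0.220 CPM. The groups did not overlap, and KO replicate 2 was the highest of its group. The log2 fold change was -2.94 (SE 0.36), equal to 7.67-fold lower, and leaving out 1 library at a time gave values from -3.63 to -2.61. The lower end is that without KO replicate 2, and the coefficient of variation within KO was 67.6%.

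**Figure D1:**
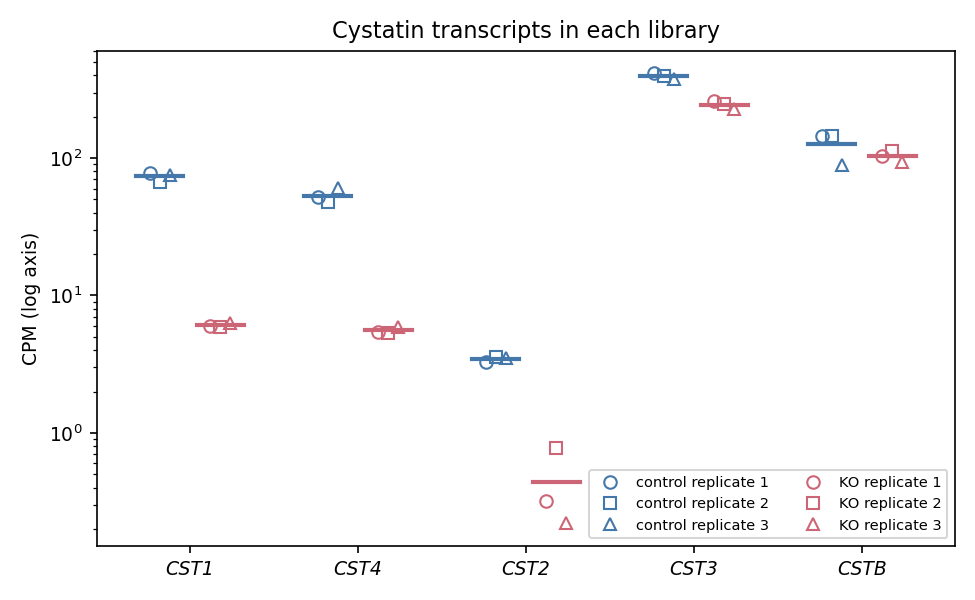
CPM (log axis) of the 5 cystatin genes that passed the filter, with 1 symbol per library (circle, square and triangle for replicates 1, 2 and 3) and bars at the group means of 3 control and 3 KO libraries. CST1, CST4, CST2 and CST3 show no overlap between groups, while for CSTB control replicate 3, at 89.1 CPM, lies below all KO libraries.

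Since reads may be divided unevenly between the copies, CST1, CST2 and CST4 were also summed into 1 row before the fit. The controls summed to 133, 118 and 140 CPM, the KO libraries to 11.7, 12.0 and 12.5 CPM, and the groups did not overlap. The log2 fold change of the sum was -3.435 (SE 0.085), between those of CST1 and CST4. How reads that fit more than 1 copy were counted is not known here.

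The copies kept the same order within the sum in all 6 libraries. CST1 took 58.8%, 56.6% and 54.1% of the summed counts in the controls and 51.1%, 48.9% and 50.7% in the KO libraries. CST4 took 38.8%, 40.4% and 43.4% in the controls and 46.1%, 44.6% and 47.6% in the KO libraries. The CST1 share was lower in every KO library than in any control, with means of 56.5 ± 2.35% and 50.2 ± 1.17% (SD, n = 3). The exact Clopper-Pearson 95% interval of control replicate 3, 52.4% to 55.8%, overlapped that of every KO library, among them 42.3% to 55.6% in KO replicate 2. The interval of control replicate 1, 56.9% to 60.6%, did not overlap that of KO replicate 2. CST2 made up 2.44% to 3.00% of the sum in the controls and 1.76% to 6.49% in the KO libraries. These intervals cover counting error only.

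**Figure D2:**
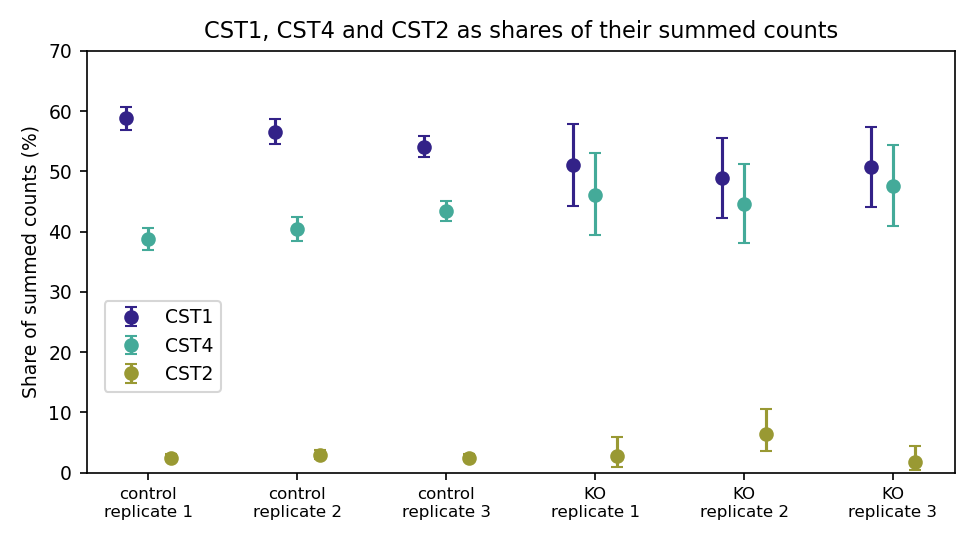
Share (%) of CST1, CST4 and CST2 in their summed counts in each of the 6 libraries, with exact 95% binomial intervals as bars. CST1 runs from 54.1% to 58.8% in control and from 48.9% to 51.1% in KO, and the intervals are wider in KO, where the sums are 219 to 231 counts.

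CST3, the cystatin C gene (ENSG00000101439, chromosome 20, 23626706 to 23638473, minus strand), was lower by a smaller factor. The controls measured 415, 396 and 376 CPM and the KO libraries 259, 249 and 229 CPM. Every KO library was below every control, and replicate 3 was the lowest library in both groups. The means were 396 ± 19.5 and 246 ± 15.1 CPM (SD, n = 3), a log2 fold change of -0.69 (SE 0.07), or 1.61-fold lower. Leaving out single libraries moved it between -0.72 and -0.62. CST3 counts were 4162 or more in every library. None of the 50-base stretches of the transcript CST3-201 occurs in a transcript of another gene, and other CST3 transcripts were not searched.

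ETS factors bind DNA around a GGAA core, so the CST3 promoter is shown as the one among these genes with a sequence in the RefSeq promoter table (GRCh38.p14). The stretch lies at chr20:23638027-23638205 on the minus strand, before the first exon of the transcript CST3-201. Capitals mark matches to CCGGAA on either strand. The gene as annotated in GENCODE reaches 23638473, so the stretch lies inside its span. Overlap with an exon that reaches beyond the upstream end of the stretch was not checked.
CST3 promoter: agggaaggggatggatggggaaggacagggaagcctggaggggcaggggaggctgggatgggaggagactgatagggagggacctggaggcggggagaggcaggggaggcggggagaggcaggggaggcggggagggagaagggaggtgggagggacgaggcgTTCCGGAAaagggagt
The 250 bases before the RefSeq gene start were searched for CCGGAA and its reverse complement TTCCGG. There were 3 matches, which start 87, 85 and 41 bases before the gene start. The first 2 overlap, being on opposite strands, and the last lies in the first exon of the transcript CST3-201 and is not printed. Of 35116 promoters of the same length in the table, 14.5% hold the motif. The longer form CCGGAAGT had 0 matches in CST3 and is in 3.42% of promoters. These matches describe letters in a window, and no binding was measured.

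CSTB, the intracellular stefin B (ENSG00000160213, chromosome 21, 43772511 to 43776445, minus strand), did not separate the groups. It measured 146, 146 and 89.1 CPM in control replicates 1, 2 and 3 and 103, 112 and 94.3 CPM in KO replicates 1, 2 and 3. Replicate 3 was the lowest library of both groups, and control replicate 3 lay below all KO libraries. The log2 fold change was -0.30 (SE 0.19). Without control replicate 3 it was -0.50 (SE 0.08), without both replicate 3 libraries -0.44 (SE 0.05), and without control replicate 1 or control replicate 2 it was -0.19 in each case (SE 0.20 in both). Over the 3 replicate numbers, KO was lower than the control of the same number in 1 and 2 and higher in 3.

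CST6, the cystatin M/E gene (ENSG00000175315, chromosome 11, 66011841 to 66013505, plus strand), had 1, 2 and 0 counts in the controls and 0, 2 and 0 in the KO libraries. All lie under the floor of 3 counts that remains possible when 0 are seen, worth 0.128 to 0.165 CPM here. No fold change is given, since a difference was not detectable at this depth.

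Most other cystatin family genes had no count. Of 22 listed names (further secreted cystatins, the stefin CSTA, pseudogenes, kininogen, fetuins and cystatin-like inhibitors), 21 are in the table and 16 of these had no count in any library. CSTA, the epidermal stefin, had 2 counts, both in KO replicate 3, and CST7 (cystatin F of leukocytes) had 6 counts over the 6 libraries. LXN, or latexin, which inhibits carboxypeptidases and has a cystatin-like fold, was the single member tested. It was at 13.8 ± 1.99 CPM in control and 11.8 ± 0.318 CPM in KO (SD, n = 3; log2 fold change -0.23, SE 0.12, edgeR adjusted p = 0.281). Among 4 salivary acinar genes, AMY1A, STATH and BPIFA2 were at 0 in all libraries and PRB1 had 1 count. Further saliva genes were not examined as markers.

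Per length, CST3 led in both groups and the order below it differed between them. With counts per kilobase of the longest annotated transcript, the control levels were 120 ± 5.92 for CST3, 96.9 ± 7.85 for CST1, 71.1 ± 8.75 for CST4, 33.9 ± 8.78 for CSTB and 4.61 ± 0.218 for CST2 (CPM per kb, SD, n = 3). These neighbours did not overlap in any library. In KO the same scale gave 74.8 ± 4.60 for CST3, 27.6 ± 2.35 for CSTB, 7.98 ± 0.314 for CST1, 7.41 ± 0.437 for CST4 and 0.588 ± 0.398 for CST2. CST1 and CST4 overlapped there. The lengths are uncertain for CST3 and CSTB, whose longest transcripts have 3286 and 3744 bases. With the transcripts CST3-201 (873 bases) and CSTB-201 (2164 bases), CST3 was at 453 ± 22.3 in control and 281 ± 17.3 in KO, and CSTB at 58.7 ± 15.2 and 47.7 ± 4.07 CPM per kb. On that scale CSTB and CST4 overlapped in the controls.

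Summed over the 6 genes, cystatin transcripts reached 694, 661 and 605 CPM in the controls, against 374, 373 and 336 CPM in KO. The highest KO library was below the lowest control. CST1, CST2 and CST4 together took 20.1 ± 2.71% of the sum in control and 3.36 ± 0.317% in KO (SD, n = 3). The share of CST3 was 60.6 ± 1.36% and 68.1 ± 1.21%, and that of CSTB 19.3 ± 3.99% and 28.6 ± 1.23%. These sums are of CPM and not per length, so longer transcripts weigh more.

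In the comparison over all genes, 4 of the 5 cystatins tested (CST1, CST2, CST4 and CST3) were lower past the edgeR threshold, against 6.42% of all 14704 tested genes, and 0 were higher, against 3.28%. Their groups did not overlap, which held for 31.7% of all genes in either direction and for 16.8% with KO lower. As these genes were chosen from this contrast, nothing is read from the count. The median log2 fold change of the 5 tested cystatins, CSTB included, was -2.94, beside 0.00 over all tested genes. CST6 was not tested and is left out of it. Without control replicate 3, 5 of 5 were past the threshold, against 5.69% of tested genes in that fit.

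CST3, CST4, CST1 and CST2 lie next to each other in the cystatin cluster of chromosome 20. Within 1000 kb on each side of the CST1 start, 54 genes are annotated, 34 are in the count table by name and 23 of these had no count in any library. The span holds 10 protein-coding cystatin genes, and the 6 besides CST3, CST4, CST1 and CST2 had no count. Of the 8 genes tested there, 4 were not cystatins: THBD (thrombomodulin), NXT1 and NAPB (in RNA export and vesicle fusion) and the zinc finger gene GZF1. Their log2 fold changes ran from -0.24 to 0.11 and 0 of 4 passed edgeR's test. At an unadjusted p under 0.05, 1 of the 4 (THBD) would pass. With the replicate block THBD (log2 fold change -0.24, edgeR adjusted p = 3.55e-05) and NAPB (-0.23, edgeR adjusted p = 0.0434) were lower and the other 2 did not pass. That fit called 16.7% of all genes lower and 17.2% higher.

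**Figure D3:**
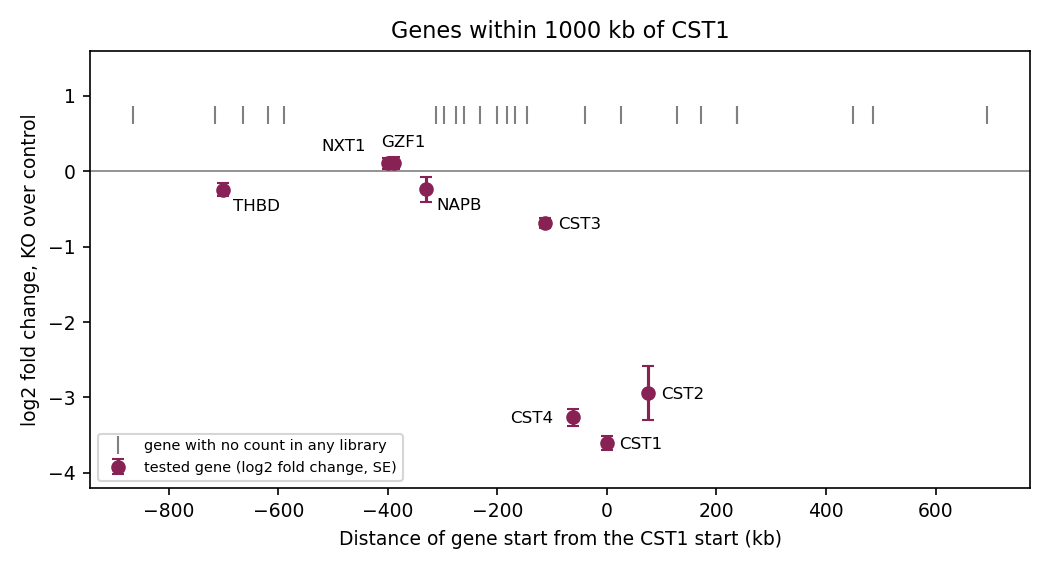
log2 fold change of KO over control (SE as bars) against the distance of each gene's start from the CST1 start in kb, negative towards lower coordinates, for the 8 tested genes within 1000 kb; grey ticks mark genes with no count in any library and have no value on the vertical axis. CST4, CST1 and CST2 lie between -2.94 and -3.60, CST3 at -0.69, and the 4 other genes near 0.

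The nearest tested genes on either side of these cystatins were NAPB, 205 kb from CST3, and APMAP, 1140 kb from CST2. APMAP, an adipocyte-associated membrane protein gene, was at 115 ± 10.6 CPM in control and 132 ± 3.96 CPM in KO (SD, n = 3; edgeR adjusted p = 0.139), and with the replicate block it was higher (log2 fold change 0.20, edgeR adjusted p = 8.70e-05). Of the 13 tested genes in a wider list of 20 on chromosome 20, 3 fell and 10 did not pass, against 6.42% of all genes lower, with a median of -0.07. By log2 fold change, the 3 were PYGB, brain-type glycogen phosphorylase (-0.36, SE 0.06; edgeR adjusted p = 0.00911), NINL, a centrosome protein (-0.51, SE 0.10) and the transcription factor FOXA2 (-0.26, SE 0.07). All 3 were lost when KO replicate 2, or either of control replicates 1 and 2, was left out, and FOXA2 also when KO replicate 1 or KO replicate 3 was. With the replicate block 5 fell and 2 rose, beside the 16.7% and 17.2% of all genes in that fit. On chromosome 11, BANF1 and CATSPER1 flank CST6 at 7.69 and 3.25 kb, with log2 fold changes of 0.19 (SE 0.22) and -0.03 (SE 0.20). BANF1, a chromatin-binding factor, was higher with the replicate block (edgeR adjusted p = 1.19e-05). Both are expressed, BANF1 at 274 ± 65.9 and CATSPER1 at 3.10 ± 0.425 CPM in control (SD, n = 3), beside a CST6 gene near 0. On chromosome 21, PDXK (pyridoxal kinase) and RRP1 (a ribosomal RNA processing factor) flank CSTB at 10.2 and 13.1 kb, with log2 fold changes of -0.08 (SE 0.06) and 0.15 (SE 0.06; edgeR adjusted p = 0.153, and 0.0260 with the replicate block).

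The proteases that cystatins inhibit were tested as a list of 11 cysteine cathepsins and legumain. Of 12 names, 11 were tested, and 0 passed edgeR's quasi-likelihood test in either direction, against 9.70% of all genes. The median log2 fold change was -0.07, beside 0.00 over all tested genes. At an unadjusted p under 0.05, 1 gene passed, and DESeq2 and limma-voom called 0. With the replicate block, CTSH and CTSZ were higher and CTSO and LGMN lower, with edgeR adjusted p between 0.0224 and 0.0401.

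CTSB (cathepsin B), an abundant lysosomal protease, measured 214, 220 and 190 CPM in control, against 206, 209 and 180 CPM in KO, so the groups overlapped. Its 95% interval for the ratio of KO to control ran from 0.84 to 1.09. CTSL (cathepsin L) was at 57.6 ± 1.81 and 59.9 ± 1.58 CPM, with an interval of 0.95 to 1.14. For CTSC (dipeptidyl peptidase I) the interval was 0.91 to 1.17 and for CTSZ (cathepsin Z) it was 0.89 to 1.29. CTSZ was highest in replicate 3 of both groups, at 264 CPM beside 212 and 213 CPM in control and at 286 CPM beside 221 and 232 CPM in KO. Legumain, LGMN, was at 51.1 ± 5.22 and 46.2 ± 4.11 CPM, with an interval of 0.78 to 1.05. The less abundant members had wider errors: CTSO had means of 3.71 ± 0.735 and 2.59 ± 0.590 CPM (edgeR adjusted p = 0.184), and CTSS of 0.618 ± 0.202 and 0.982 ± 0.155 CPM (SD, n = 3; edgeR adjusted p = 0.281). CTSF, CTSH, CTSK and CTSV had log2 fold changes of -0.15, 0.28, -0.28 and -0.25. Summed over the 11 genes, cathepsin and legumain transcripts reached 811, 808 and 798 CPM in control, against 812, 828 and 810 CPM in KO. The groups overlapped. The summed cystatins did not, but those genes were chosen from this contrast, so nothing is read from the difference.

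**Figure D4:**
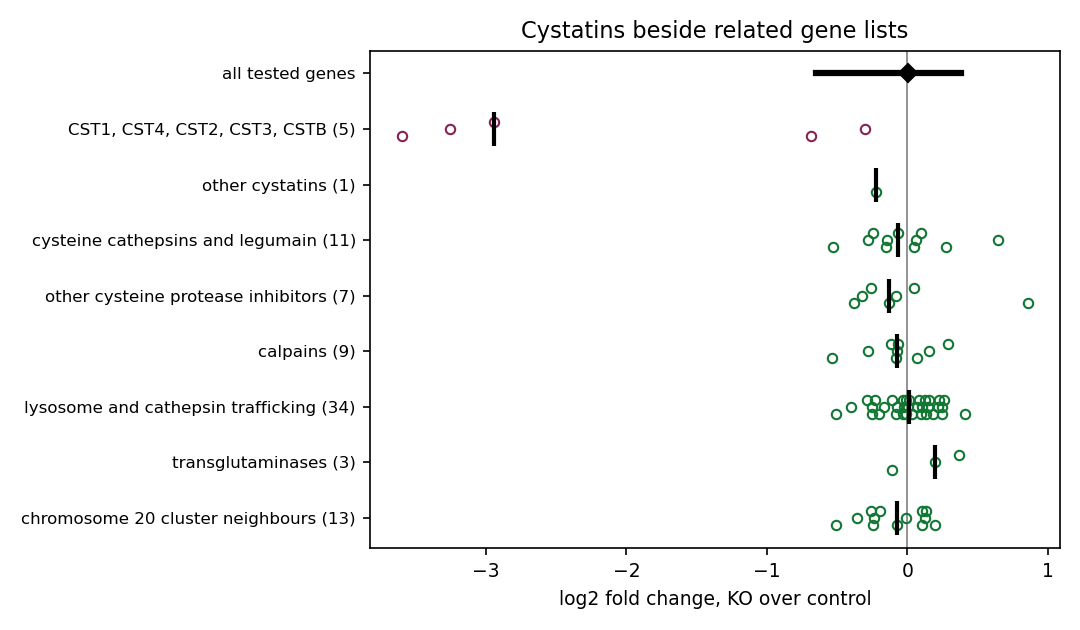
log2 fold change of KO over control for each tested gene (open circles) in the cystatin set and the related lists, with the number of tested genes in brackets and list medians as black ticks; the bar at the top spans the 5th to 95th percentile of all 14704 tested genes (-0.65 to 0.38), with the median as a diamond. Vertical offsets of the circles only separate them, and CST1, CST4 and CST2 lie outside the range of every other list.

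Of 7 genes tested from a list drawn up as other cysteine protease inhibitors, 1 rose, 1 fell and 5 did not pass. Over all genes 9.70% were called in either direction. The list's median log2 fold change was -0.13, and which proteases its members inhibit in these cells was not tested. SERPINB1, an inhibitor of neutrophil proteases inside cells, measured 94.8, 87.5 and 84.0 CPM in the controls and fell to a mean of 68.1 ± 3.55 CPM (SD, n = 3; log2 fold change -0.38, SE 0.07, edgeR adjusted p = 0.0110). SPOCK1 (testican), a secreted proteoglycan, rose from 2.05 ± 0.472 to 3.75 ± 0.301 CPM (SD, n = 3; edgeR adjusted p = 0.0344; log2 fold change 0.86, SE 0.21). SPOCK1 did not pass in any of the 6 fits that leave out 1 library, where edgeR's adjusted p ran from 0.0515 to 0.120. SERPINB1 did not pass without control replicate 1 or KO replicate 1. CAST, calpastatin, the inhibitor of calpains, was at 350 ± 27.2 and 319 ± 8.91 CPM (SD, n = 3; edgeR adjusted p = 0.289). With the replicate block 3 of these genes fell and 1 rose, beside 16.7% and 17.2% of all genes in that fit.

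The genes whose profile over the 6 libraries was most like that of a cystatin were ranked by Pearson's r of log2 CPM among 10730 candidates with a mean of at least 5 CPM. For CST1 they were NDRG1, a stress-responsive gene (r = 0.9999), IDI1 of isoprenoid synthesis (0.9992), PLAT, tissue plasminogen activator (0.9989), CST4 (0.9987) and the mitophagy receptor BNIP3 (0.9985). For CST3 they included INSIG1, a sterol sensor (0.9995), HDAC5 (0.9995), LPIN2 (0.9991) and AGR2 (0.9991). For CSTB they were CCDC88A (0.998), MAP1LC3B, an autophagosome protein (0.9855), TBL1X (0.9836), ALDH2 (0.9803) and OSBPL3 (0.9798). The 6 points fall into 2 groups and share libraries, and no p-value is given. An r above 0.95 was reached by 470 genes (4.38%) for CST1 and by 485 (4.52%) for CST3, but by 41 (0.382%) for CSTB. NDRG1 measured 594, 550 and 586 CPM in control, against 93.5, 93.5 and 99.8 CPM in KO, so that control replicate 2 was the lowest control for both NDRG1 and CST1. INSIG1 measured 178, 166 and 154 CPM and then 93.5, 86.1 and 76.5 CPM, the same order of libraries as CST3. That order was shared by 172 of the 10730 candidates. CCDC88A measured 189, 190 and 167 CPM and then 173, 177 and 168 CPM, with replicate 3 lowest in both groups as for CSTB.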

How the data were processed

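The authors deposited raw counts of reads per gene name for 6 poly(A) libraries (TruSeq Stranded mRNA kit, per the labels' protocols). The submitters' processing notes name STAR 2.7.9a, featureCounts, FastQC 0.11.9 and R 4.1.1, and build hg38. Not given in the sources used here are the annotation, the strand setting and how multi-mapping reads were handled, so counts of CST1, CST2 and CST4, which are near-identical copies, and of overlapping genes are uncertain.

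Columns were matched to samples by library name. edgeR's filterByExpr kept 14704 genes; edgeR's quasi-likelihood test with TMM factors and group as the single term was fitted to all of them with Benjamini-Hochberg adjustment and a threshold of 0.05 (R 4.3.3, edgeR 4.0.16, limma 3.58.1, DESeq2 1.42.0). Fold changes are KO over control. The SE of a log2 fold change was derived from edgeR's quasi-likelihood F, as the absolute log2 fold change divided by the square root of F. Log2 CPM used a prior count of 2. The procedure was tested on simulated data. Floors are 3 counts. Transcripts and positions are from GENCODE release 29, in which 88.2% of tested genes were found by name.

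Named genes were the 6 cystatins, ETV1, ETV4 and ETV5, the other tested cystatin family genes, the tested cathepsins and legumain, up to 3 genes per direction from each further list (2 where none passed), the nearest tested gene on each side of a cystatin locus, and 5 most alike genes each for CST1, CST3 and CSTB. THBD, NXT1 and GZF1, genes near CST1, and CAST were named after their values were seen. A few items that this rule selects are not reported here. The members and lists were chosen with earlier results of these data known. Same-numbered libraries deviated together (correlations of 0.55, 0.45 and 0.83 over 10032 genes). The main fit did not pair them, and the replicate block is the same fit with the replicate number as a further term. Taking the numbers as pairs rests on the data, and numbers 1 and 2 go against it. Their crossed pairs were higher, at 0.59 (control 1, KO 2) and 0.58 (control 2, KO 1). Chi-square per degree of freedom between replicates was at least 4.19, so no pair agreed within sampling noise.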

Additional observations from a re-analysis of the deposited data

How the results depend on the processing

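For CST1, CST2, CST4, CST3 and CSTB each alternative run for them gave a negative log2 fold change that moved by less than the spread between replicates; with 1 library left out the ranges were -3.67 to -3.55, -3.63 to -2.61, -3.34 to -3.16, -0.72 to -0.62 and -0.50 to -0.19. Alternatives were DESeq2, limma-voom, RLE factors, library totals, no or a stricter low-count filter, the replicate block, summed copies (which refit CST3 and CSTB and replace the other 3 genes by their sum), single libraries left out and, chosen after seeing the data, both replicate 3 libraries left out. The cause of the changes below was not tested. Genes higher and lower numbered 483 and 944, 2522 and 2461 with the replicate block, 1731 and 2023 without both replicate 3 libraries, and 136 to 777 and 436 to 964 leaving out 1 library. The replicate block gave these list counts: the cathepsin list had 2 higher and 2 lower, other inhibitors 3 lower, calpains 1 higher and 2 lower, lysosome genes 9 higher and 8 lower, transglutaminases 1 lower, and chromosome 20 genes 2 higher and 5 lower. Without both replicate 3 libraries, 3 other inhibitors were lower, 1 calpain higher, 5 lysosome genes higher and 7 lower, and 2 chromosome 20 genes higher. Lysosome genes lower were 1 with limma-voom and 1 with RLE factors, and without the low-count filter 4 were higher and 5 lower. With 1 library left out, other inhibitors higher were 0 in every such fit and lower 0 to 1, lysosome genes 0 to 4 in each direction, and chromosome 20 genes lower 0 to 4. Per length, the median transcript gave 8.57 for CST1 in KO, 453 and 281 for CST3 in control and KO, and 56.3 and 45.7 for CSTB; the CST3-201 and CSTB-201 transcripts, chosen after seeing the lengths, gave 453, 281, 58.7 and 47.7 CPM per kb. By Spearman's rho, 2 of the 5 most alike genes of CST1 and 2 of CSTB stayed in the top 5, which ties widen to 27 and 29 genes. For CST3 all 5 stayed, in a top 5 that ties widen to 172 genes. Leaving out 1 library turned the sign of 7 genes that did not pass, with these ranges: ETV5 -0.018 to 0.043, CTSB -0.132 to 0.017, CTSC -0.011 to 0.133, CTSZ -0.003 to 0.211, TGM2 -0.17 to 0.005, BANF1 -0.009 to 0.402 and CATSPER1 -0.161 to 0.063. Depth limits CST6, CST2 in KO and CTSS.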

Other observations

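Calpains, calcium-dependent cysteine proteases of the cytosol, were measured beside the cathepsins. Of 9 tested, 1 fell and 8 did not pass edgeR's test, against 9.70% of all genes called in either direction, and their median was -0.07 (log2 fold change). The member that fell was CAPN2, the catalytic subunit of m-calpain, at 1340, 1310 and 1250 CPM in the controls and a mean of 896 ± 36.1 CPM in KO (SD, n = 3; log2 fold change -0.54, SE 0.06, edgeR adjusted p = 0.00134). It passed in every alternative run. With the replicate block, which called 16.7% of all genes lower and 17.2% higher, 2 calpains fell and 1 rose. Of 3 transglutaminase genes tested, 0 passed edgeR's test, 0 had an unadjusted p under 0.05, and DESeq2 and limma-voom called 0; TGM2, tissue transglutaminase, was at 238 ± 18.5 and 221 ± 25.1 CPM (SD, n = 3) and was lower with the replicate block (edgeR adjusted p = 0.0115). F13A1, the coagulation factor XIII A chain, was at 0.537 ± 0.0164 and 0.693 ± 0.121 CPM (SD, n = 3).

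Among 34 tested genes of the lysosome and of cathepsin trafficking, 2 rose, 2 fell and 30 did not pass, against 3.28% of all genes higher and 6.42% lower, with a median log2 fold change of 0.01. GLA, alpha-galactosidase A, rose from 32.8 ± 1.28 to 43.4 ± 2.42 CPM (SD, n = 3; edgeR adjusted p = 0.00936; log2 fold change 0.41, SE 0.07). GAA, acid alpha-glucosidase, fell from 40.7 ± 3.06 to 28.5 ± 2.65 CPM (SD, n = 3; log2 fold change -0.51, SE 0.09, edgeR adjusted p = 0.00995). LIPA, lysosomal acid lipase, fell from 96.6 ± 0.323 to 83.9 ± 2.00 CPM (SD, n = 3; edgeR adjusted p = 0.0456) and did not pass in 11 of the alternatives, DESeq2 and limma-voom among them. GLA was lost when control replicate 1 was left out. GAA was lost in 3 such fits (leaving out the first or second control, or the second KO library). With the replicate block 9 of the 34 rose and 8 fell, beside 17.2% and 16.7% of all genes.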
